A study of Triticum aestivum with 24 samples.

Results

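The copper-responsive family miR398 was represented by 2 of the 202 annotated mature microRNA (miRNA) tags of wheat leaves, where a tag is a distinct small RNA sequence with its own read count. Both were taken by name, as every tag of the deposited count table whose family is miR398, and they are miR398-1.a-5p from the 5′ arm and miR398-1.b-3p from the 3′ arm of a single hairpin precursor. Leaves of hexaploid wheat (Triticum aestivum) cv Chinese Spring, a wild-type reference cultivar grown from the selfed seed of 1 plant, were sampled from plants exposed at the boot stage to 37 °C for 5 days (Heat) and from plants kept at 18 °C in the light (Control). The 6 groups were Heat and Control at 0 days after treatment (DAT), the end of the stress, and at 1 and 4 DAT, with 4 small RNA libraries each, so that the treatment effect could be followed from the end of the stress into the recovery. RNA of 18 plants was pooled for each library. Plants were sampled again on each of the 3 days, so the 24 libraries represent 8 plant pools, and libraries of 1 pool are not independent. The table holds miRNA tags only, so the leaf label could not be checked against marker genes.

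In plants, miR398 is a conserved miRNA that guides the cleavage of transcripts of copper/zinc superoxide dismutases, the copper-containing enzymes that remove superoxide. In Arabidopsis its genes are activated by the transcription factor SPL7 when copper is scarce, which spares copper for plastocyanin in photosynthesis, and they also respond to heat, light and oxidative stress. The strand of the 3′ arm is the one usually loaded as the guide, and the strand of the 5′ arm is its partner in the duplex, the star strand.

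The mature sequences are shown because both arms were counted and the 3p tag is the one that pairs with target transcripts. Bases 2 to 8 of each tag, the seed, are in capitals.
miR398-1.a-5p: gAGTGCCTctgagaacacaagc
miR398-1.b-3p: tTGTGTTCtcaggtcacccct
The 5p tag has 22 nt and the 3p tag 21 nt. As listed, 0 of the other 200 tags share either seed, and the longest run of bases that either tag shares with any of them is 7 nt. However, 34 tags matched the study's precursors only as their reverse complement. Against the reverse complements of the other tags the longest run was 9 nt for the 5p tag and 6 nt for the 3p tag, and seeds were not compared. No near-identical tag was thus found on either strand.

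Both tags matched 1 precursor only, pre-miR398-1, on the minus strand of chromosome 5B (IWGSC RefSeq v1.0, 480241456 to 480241577). The precursor of 122 nt is shown with the tags in capitals.
pre-miR398-1: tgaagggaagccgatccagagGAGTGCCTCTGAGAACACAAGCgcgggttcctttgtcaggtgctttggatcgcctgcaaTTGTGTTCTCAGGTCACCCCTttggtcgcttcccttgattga
The 5p tag covers bases 22 to 43 of the precursor (480241535 to 480241556) and the 3p tag bases 81 to 101 (480241477 to 480241497), with 37 bases between them. Folded with RNAfold, the precursor had a minimum free energy of -65.3 kcal/mol, and 17 bases of the 5p tag were paired with 17 bases of the 3p tag. At both ends of the duplex the 3′ end of a tag ran 2 nt past its partner, the overhang that Dicer-like enzymes leave. The study kept tags whose precursor folds into a hairpin and looked for star strands with this offset. The fold and the overhang thus partly restate how the tags were annotated.

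The study's supplementary list of transcripts, of which a shortened copy was used here, pairs the 3p tag with sites in transcripts annotated as superoxide dismutase [Cu-Zn], and 3 of them were found in that copy. Their sequences are shown 5′ to 3′, with the bases that pair with the tag by Watson-Crick pairing in capitals.
TraesCS2A01G121200.2: cGGGGTcACCTGAGAtCACAc
TraesCS2A01G399000.1: cttGGTGACCTGgGAACACtA
TraesCS2B01G417000.1: cttGGTGACCTGgGAACACtA
The site of TraesCS2A01G121200.2 paired at 17 of 21 bases, with mismatches at positions 1, 6, 15 and 21 counted from the 5′ end of the tag. The sites of TraesCS2A01G399000.1 and TraesCS2B01G417000.1, on chromosomes 2A and 2B, were identical. They paired at 16 bases, with mismatches at positions 2, 19, 20 and 21 and a G:U pair at position 9. Within the seed, each site thus had 1 mismatch. Expression of these transcripts was not analysed here.

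Reads of the family were few. Over the 24 libraries miR398-1.a-5p had 121 reads and miR398-1.b-3p had 252, together 373 or 0.0109% of 3421194 miRNA reads. By mean count the 3p tag was at place 183 and the 5p tag at place 197 of 202 tags, and the family was at place 36 of 37. The 5p tag had no read in 6 libraries and a median of 1 read, and the 3p tag had none in 5 libraries and a median of 5.5. No library of the series had more than 45 reads of the 5p tag or 54 reads of the 3p tag. Library totals ranged from 58501 to 300261 miRNA reads (median 137292). A count of 0 allows up to 3 reads, which corresponds to between 11.3 and 50.2 RPM (reads per 1000000 miRNA reads) depending on the library. This limit, like every counting interval given here, covers counting error only, since the reads carry no molecular identifiers. Levels are given as RPM after TMM scaling, which corrects library totals for differences in composition.

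A pair of libraries stood apart. Heat 1 DAT replicate 2 had 45 reads and Control 0 DAT replicate 2 had 29 reads of the 5p tag, and together they held 61.2% of all its reads. For the 3p tag the same libraries had 40 and 32 reads, and 37.3% of its reads lay in its 2 richest libraries, Heat 4 DAT replicate 4 and Heat 1 DAT replicate 2. On the other days the Heat pool of number 2 had 1 read of the 5p tag at 0 DAT and 1 at 4 DAT, and 0 and 8 reads of the 3p tag. The Control pool of number 2 had 2 reads of the 5p tag at 1 DAT and 1 at 4 DAT, and 14 and 1 reads of the 3p tag, of which the 14 reads were the most of any Control library at 1 DAT. Values without these libraries are given beside the results that rest on them.

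**Figure D1:**
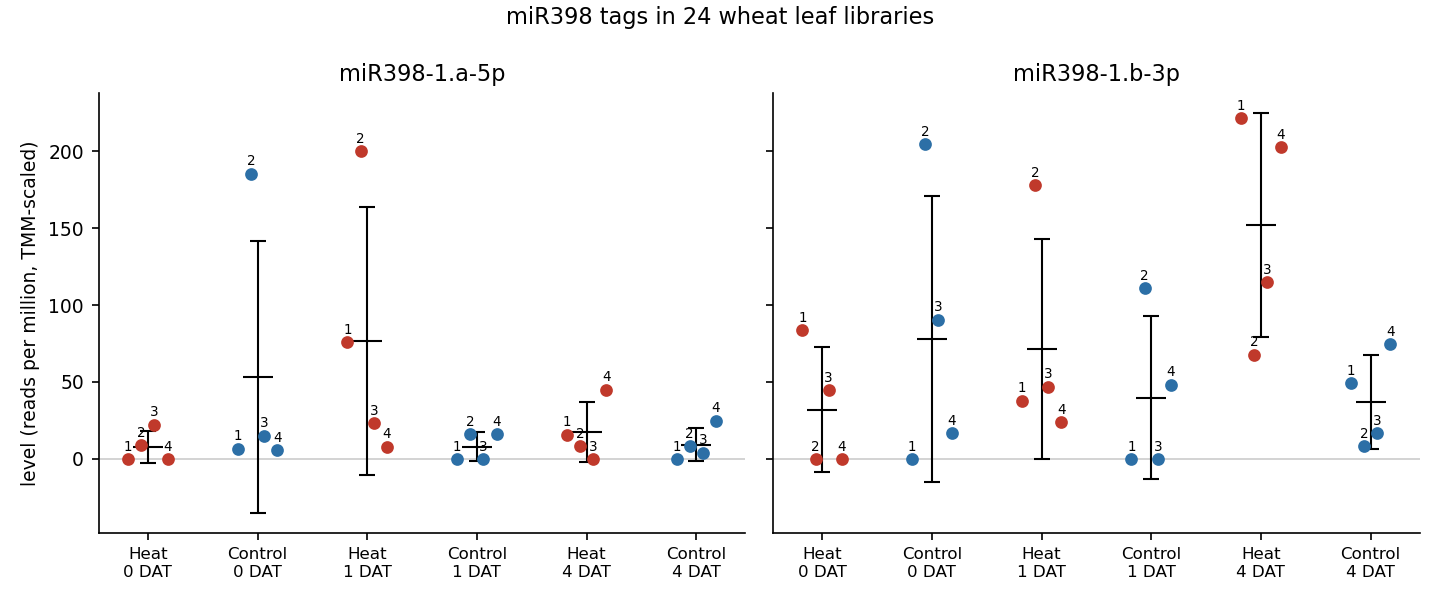
Level of miR398-1.a-5p (left) and miR398-1.b-3p (right) in RPM after TMM scaling (vertical axis), by group of treatment and day (horizontal axis). Points are libraries with their replicate number, Heat red and Control blue, and black bars give the mean ± SD of 4 libraries; the 5p tag is highest in Heat 1 DAT replicates 2 and 1 (200.1 and 75.9 RPM) and in Control 0 DAT replicate 2 (185 RPM), and the 3p tag in Heat 4 DAT replicate 1 (222 RPM).

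At 0 DAT both tags were low in Heat. miR398-1.a-5p had 0, 1, 3 and 0 reads in Heat (replicates 1 to 4), against 1, 29, 1 and 1 reads in Control, or 0, 9.08, 22.4 and 0 RPM in Heat against 6.67, 185, 15.1 and 5.61 RPM in Control. The groups overlapped, and only Control replicate 2 was above every Heat library. miR398-1.b-3p had 5, 0, 6 and 0 reads in Heat, against 0, 32, 6 and 3 in Control, or 83.7, 0, 44.7 and 0 RPM in Heat against 0, 204, 90.4 and 16.8 RPM in Control. Here too the groups overlapped, and each held at least 1 library without a read. Since leaves were analysed in bulk, fewer cells that make a miRNA and less of it per cell cannot be told apart.

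The difference between Heat and Control at 0 DAT did not pass the threshold of 0.05 after adjustment for either tag. The log2 difference was -2.42 ± 1.28 (SE) for miR398-1.a-5p (adjusted p = 0.224, edgeR quasi-likelihood test with Benjamini-Hochberg adjustment) and -1.40 ± 1.13 for miR398-1.b-3p (adjusted p = 0.484). Of all 202 tags, 35 or 17.3% passed the threshold of 0.05 on that day, 18 of them (8.91%) higher and 17 (8.42%) lower in Heat (24, 17 of them higher, on miRNA totals without TMM, and 22 without Heat 0 DAT replicate 3). Of the 2 miR398 tags 0 did so with edgeR, 0 with DESeq2 and 0 at an unadjusted p under 0.05, which 56 tags or 27.7% reached. Control replicate 2 set the direction: without it the log2 difference was 0.30 for the 5p tag and 0.15 for the 3p tag. The Heat libraries of this day were also the shallowest group, with a median of 80557 miRNA reads against 142238 in Control, and the part of depth in the result was not tested.

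One day after the stress the 5p tag had its highest level. It had 10, 45, 3 and 1 reads in Heat, against 0, 2, 0 and 2 reads in Control, which gave 75.9, 200.1, 23.4 and 7.99 RPM in Heat against 0, 15.9, 0 and 16.1 RPM in Control. All but Heat replicate 4 were above every Control library. miR398-1.b-3p had 5, 40, 6 and 3 reads in Heat, against 0, 14, 0 and 6 in Control, or 37.9, 178, 46.9 and 24.0 RPM in Heat against 0, 111, 0 and 48.4 RPM in Control. Its groups overlapped widely, since Control replicate 2 was above every Heat library but replicate 2.

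At 1 DAT the log2 difference of miR398-1.a-5p was 3.30 ± 1.19 (SE), with a 95% interval of 0.85 to 5.74, the third highest of 202 tags. By p, counted from the lowest, it was at place 27, and its SE was at place 3 from the largest. It did not pass the threshold (unadjusted p = 0.0104, adjusted p = 0.0771, edgeR quasi-likelihood test). That of miR398-1.b-3p was 0.98 ± 0.99 (adjusted p = 0.636, same edgeR test). On this day 23 tags or 11.4% were called, 13 (6.44%) higher and 10 (4.95%) lower in Heat. Of the 2 miR398 tags 0 were called with edgeR and 0 with DESeq2, while 1 had an unadjusted p under 0.05, against 48 tags or 23.8% of all. The count of called tags itself was unstable on this day. It was 1 without Control 1 DAT replicate 2, 6 without Control 1 DAT replicate 3, between 12 and 13 without Heat 1 DAT replicate 1, 3 or 4, 1 in a fit of the 8 libraries of the day, and 18 with a replicate block. By scaling it was 5 (5 higher) on miRNA totals without TMM and 25 (21 higher) on totals of 18 to 24 nt reads. The call of the 5p tag depended on the setting. Without Heat replicate 2 its log2 difference was 2.13 (adjusted p = 0.382, edgeR), without Control 0 DAT replicate 2 it was 3.29 (adjusted p = 0.0435), and on totals of 18 to 24 nt reads in place of TMM it was 3.55 (adjusted p = 0.0479), a scaling that shifted the median of all tags by 0.27. The 3p tag had a log2 difference of -0.073 without Heat replicate 2.

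At 4 DAT the 3p tag was the more abundant and the better separated of the 2. miR398-1.b-3p had 28, 8, 12 and 54 reads in Heat, against 4, 1, 4 and 15 in Control. Scaled by depth, this was 222, 67.8, 115 and 203 RPM in Heat against 49.1, 8.29, 16.5 and 74.8 RPM in Control. Only Heat replicate 2 lay below the highest Control library, replicate 4. miR398-1.a-5p had 2, 1, 0 and 12 reads in Heat, against 0, 1, 1 and 5 in Control, or 15.8, 8.48, 0 and 45.1 RPM in Heat against 0, 8.29, 4.13 and 24.9 RPM in Control. In both treatments the library with most reads of either tag was replicate 4 by count.

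The log2 difference at 4 DAT was 2.03 ± 0.93 (SE) for miR398-1.b-3p, with a 95% interval of 0.11 to 3.95, the fourth highest of 202 tags. By p it was at place 19, and its SE was at place 8 from the largest. It did not pass the threshold (unadjusted p = 0.0392, adjusted p = 0.387, edgeR quasi-likelihood test). For miR398-1.a-5p the log2 difference was 0.95 ± 1.25 (adjusted p = 0.729, same edgeR test), and without Heat replicate 4 it was -0.29. On this day 0 of 202 tags or 0% were called by edgeR, with 26 or 12.9% at an unadjusted p under 0.05, and DESeq2 called 4, of which 0 were miR398 tags. The 3p difference stayed positive when each of the 24 libraries was left out in turn, between 1.71 and 2.81, with adjusted p between 0.323 and 0.545 by the same edgeR test. Over the 3 days, 0 of the 2 tags had Heat and Control libraries that did not overlap on any day, against 23.3%, 9.41% and 8.42% of all tags at 0, 1 and 4 DAT.

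With the 3 Heat and Control contrasts tested together, 45 tags or 22.3% were called, and neither miR398 tag was among them. The adjusted p was 0.0719 for miR398-1.a-5p and 0.245 for miR398-1.b-3p (edgeR quasi-likelihood F test), and 0.0720 and 0.410 with DESeq2. The result of the 5p tag depended on the setting. Its adjusted p was 0.0448 on totals of 18 to 24 nt reads and 0.0285 with edgeR's likelihood ratio test, but 0.110 on miRNA totals without TMM and 0.103 with a replicate block. Without 1 library it ranged from 0.0418 (Heat 1 DAT replicate 4) to 0.275 (Heat 1 DAT replicate 2), and it was also under the threshold without Control 0 DAT replicate 4 (0.0459). Without both high libraries it was 0.483, and without all 6 libraries of number 2 it was 0.568 (edgeR quasi-likelihood F test).

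Summed over both tags, the family was lower in Heat at 0 DAT and higher at 1 and 4 DAT by its mean, and no day passed its test. At 0 DAT the summed level was 39.96 ± 41.6 RPM in Heat, against 131 ± 178 RPM in Control. At 1 DAT it was 149 ± 157 RPM in Heat, against 47.9 ± 60.9 RPM in Control, and at 4 DAT 169 ± 86.4 RPM in Heat, against 46.5 ± 38.3 RPM in Control (SD, n = 4 each). Exact two-sided permutation tests of the summed RPM gave p = 0.429, 0.286 and 0.0571 at 0, 1 and 4 DAT, with 0.171 for the last after adjustment over the 3 days. With 4 libraries against 4 the smallest p this test can give is 0.0286. Without Control replicate 2 the difference of -91.2 RPM at 0 DAT became -4.93 RPM, and without Heat replicate 2 that of 101 RPM at 1 DAT became 24.2 RPM. As a family sum in edgeR, the log2 differences were -1.65 ± 1.16, 1.60 ± 1.05 and 1.91 ± 1.03 (SE) at 0, 1 and 4 DAT, with adjusted p of 0.404, 0.374 and 0.407 over 37 families. Of these families, 2.7%, 5.41% and 5.41% were called on the 3 days, and miR398 on none.

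**Figure D2:**
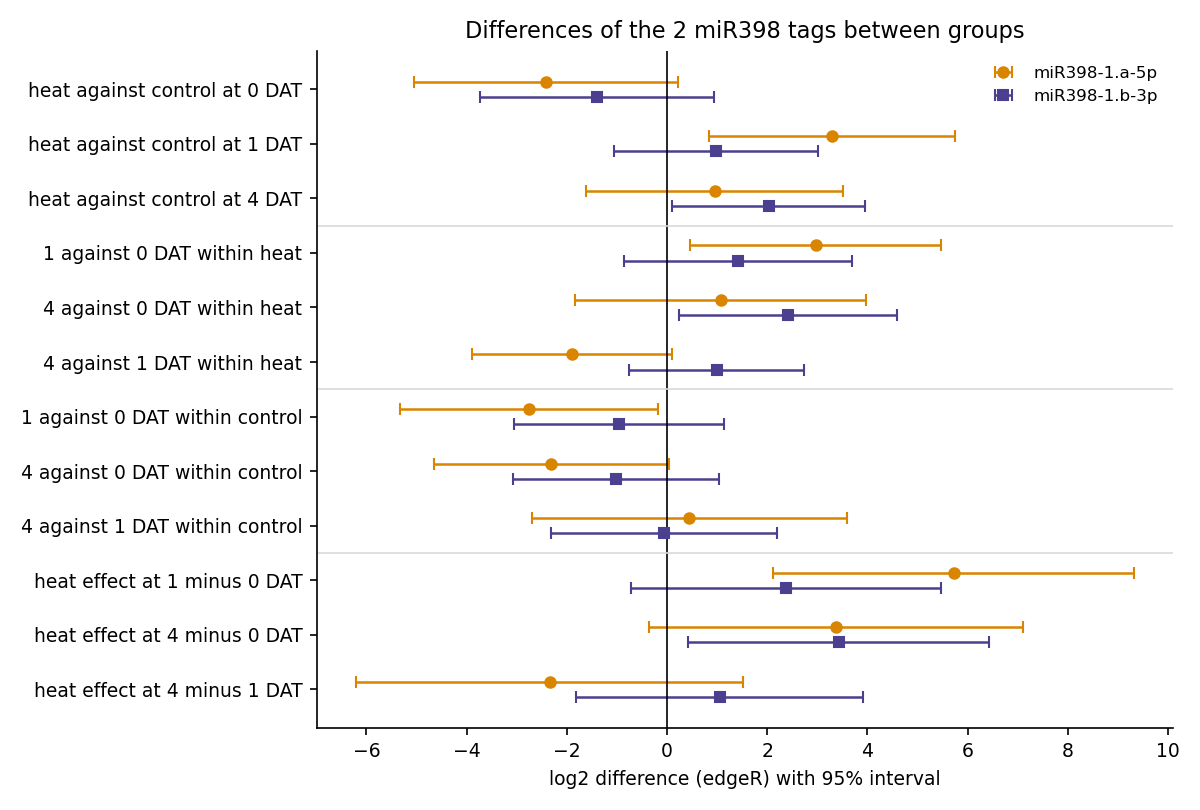
Log2 difference (horizontal axis) of miR398-1.a-5p (orange circles) and miR398-1.b-3p (purple squares) in each comparison (vertical axis), from the edgeR fit of all 24 libraries, with unadjusted 95% intervals. Of the Heat against Control intervals, those of the 5p tag at 1 DAT (0.85 to 5.74) and of the 3p tag at 4 DAT (0.11 to 3.95) lie above 0; some between days and interactions also lie to one side of 0, and no comparison passed after adjustment.

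Whether the effect of heat itself differed between days was tested as an interaction, the Heat against Control difference of one day minus that of another. For miR398-1.a-5p the effect at 1 DAT exceeded that at 0 DAT by 5.72 ± 1.75 on the log2 scale (SE, 95% interval 2.12 to 9.31), the second highest of 202 tags. It had an unadjusted p of 0.00307, at place 8 by p, and an adjusted p of 0.0692 (edgeR quasi-likelihood test). In this contrast 5 tags or 2.48% were called, and 18 or 8.91% had an unadjusted p under 0.05. Called tags were 2 with a replicate block and 1 with a block of plant pools. For miR398-1.b-3p the effect at 4 DAT exceeded that at 0 DAT by 3.43 ± 1.46, again the second highest value but at place 12 by p. Its adjusted p was 0.421 in the same edgeR test, and 2 tags or 0.99% were called. Both values rest in part on Control 0 DAT replicate 2: without it they were 2.99 (adjusted p = 0.999, edgeR) for the 5p tag and 1.88 (adjusted p = 0.832) for the 3p tag. The 5p value passed without Control 0 DAT replicate 4 (6.14, adjusted p = 0.0432, edgeR) and without Heat 1 DAT replicate 4 (6.06, adjusted p = 0.0459). With edgeR's likelihood ratio test its adjusted p was 0.0254, and on totals of 18 to 24 nt reads it was 0.0393 with the quasi-likelihood test.

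Between days within Heat, the mean of the 5p tag was highest at 1 DAT and that of the 3p tag at 4 DAT, and no difference between days passed the test. The 5p tag averaged 76.9 ± 87.2 RPM at 1 DAT against 7.86 ± 10.6 RPM at 0 DAT, a log2 difference of 2.97 ± 1.22 (SE; adjusted p = 0.300, edgeR quasi-likelihood test) that was 1.78 without Heat 1 DAT replicate 2, and 17.3 ± 19.6 RPM at 4 DAT (SD, 4 libraries each). Its log2 difference of 4 against 1 DAT, -1.90 ± 0.97 (adjusted p = 0.672, same edgeR test), was the lowest of 202 tags but at place 18 by p, and it was -0.67 without Heat 1 DAT replicate 2. The 3p tag averaged 152 ± 72.7 RPM at 4 DAT, against 71.7 ± 71.4 RPM at 1 DAT and 32.1 ± 40.3 RPM at 0 DAT. For 4 against 0 DAT its log2 difference was 2.41 ± 1.06 (adjusted p = 0.189, edgeR), the second highest of 202 tags but at place 32 by p. Called tags were 4 or 1.98% for 1 against 0 DAT, 11 or 5.45% for 4 against 0 DAT (5 higher, against 1 of 14 on miRNA totals without TMM and 12 of 16 on totals of 18 to 24 nt reads) and 0 or 0% for 4 against 1 DAT by edgeR, where DESeq2 called 3, and the miR398 tags were not among them. At an unadjusted p under 0.05 there were 20 or 9.9%, 44 or 21.8% and 17 or 8.42% of all tags, and miR398-1.a-5p was among the first and miR398-1.b-3p among the second.

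Within Control, leaves of unstressed plants gave means that depended on 1 library. miR398-1.a-5p averaged 8.00 ± 9.24 RPM at 1 DAT and 9.34 ± 10.9 RPM at 4 DAT, against 53.2 ± 88.2 RPM at 0 DAT. For 1 against 0 DAT its log2 difference of -2.75 ± 1.25 was the lowest of 202 tags but at place 7 by p (unadjusted p = 0.0371, adjusted p = 0.998, edgeR quasi-likelihood test), and it was -0.027 without Control 0 DAT replicate 2. miR398-1.b-3p averaged 39.9 ± 52.7 RPM at 1 DAT and 37.2 ± 30.6 RPM at 4 DAT, against 77.9 ± 93.1 RPM at 0 DAT. Its log2 differences were -0.96 ± 1.02 for 1 against 0 DAT and -1.02 ± 1.00 for 4 against 0 DAT, and they were 0.59 and 0.53 without that library. In Control 0 tags or 0% were called by edgeR between any days, with 9, 7 and 5 tags or 4.46%, 3.47% and 2.48% at an unadjusted p under 0.05 for 1 against 0, 4 against 0 and 4 against 1 DAT. DESeq2 called 0 tags for 1 against 0 DAT.

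Ordered by mean RPM, the 5p tag was highest in Heat at 1 DAT, followed by Control at 0 DAT, Heat at 4 DAT, Control at 4 DAT, Control at 1 DAT and Heat at 0 DAT. The order of the 3p tag was Heat at 4 DAT, Control at 0 DAT, Heat at 1 DAT, Control at 1 DAT, Control at 4 DAT and Heat at 0 DAT. Heat at 0 DAT was thus last for both. Every neighbour in both orders overlapped with the next, and exact two-sided permutation tests of the 10 neighbouring pairs gave p of at least 0.286. Neighbours in an order made from the same values are close by construction, so these tests cannot decide whether the order holds. Some neighbours, such as Control at 4 and 1 DAT, also share plant pools, which the tests ignore.

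The spread between libraries was large for this family. Over all 24 libraries the 5p tag averaged 28.8 ± 53.3 RPM and the 3p tag 68.4 ± 70.4 RPM (SD). The SD divided by the mean was 1.85 for the 5p tag and 1.03 for the 3p tag, places 2 and 10 of 202 tags from the highest, against a median of 0.410. The study kept tags by a minimum level reached in any library, so a rare tag could enter through its highest libraries alone. How far this selection set the spread was not tested. The dispersion that edgeR estimated within groups was 0.922 for the 5p tag and 0.929 for the 3p tag, against a median of 0.0941, and 5 and 4 tags had a higher one. As a result the SE of the log2 differences at 4 DAT, 1.25 and 0.93, compared with a median of 0.365 over all tags. Across libraries the levels were little related to the total of miRNA reads (Spearman rho 0.272 for the 5p tag and 0.0245 for the 3p tag, as a description over 24 libraries that share plant pools).

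**Figure D3:**
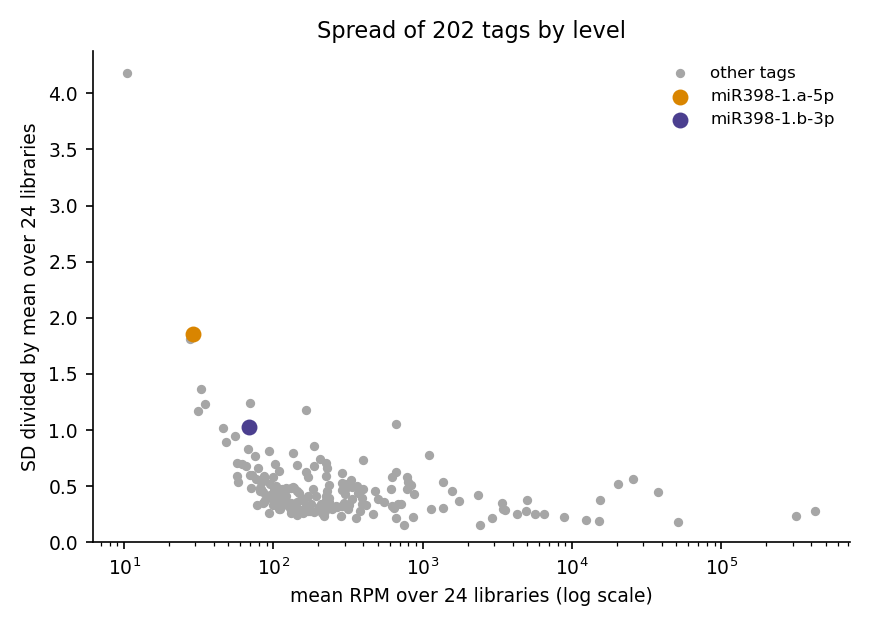
SD divided by the mean over 24 libraries (vertical axis) against mean RPM (horizontal axis, log scale) for 202 tags, with miR398-1.a-5p in orange, miR398-1.b-3p in purple and the other tags in grey. The 5p tag, at a mean of 28.8 RPM and a ratio of 1.85, and the 3p tag, at 68.4 RPM and 1.03, lie at the low-level end, where the ratio is larger for many tags.

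The guide arm was the more abundant in most libraries. Reads of miR398-1.b-3p outnumbered those of miR398-1.a-5p in 16 libraries, were fewer in 4 and equal in 4, of which 3 libraries had no read of either tag. The values compare whole tags of nearly the same length (21 and 22 nt), counted in the same libraries. Averaged over the 3 days of each plant pool, the log2 ratio of 3p to 5p reads (0.5 added to each) was above 0 in 8 of 8 pools. It ranged from 0.25 in Heat pool 2 to 2.14 in Heat pool 3, with a mean of 1.19 ± 0.66 (SD), or 2.29-fold. An exact two-sided sign-flip permutation test over the 8 pools gave p = 0.00781, the smallest it can give.

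The share of the 3p tag in the miR398 reads overlapped between Heat and Control on each day, and no comparison passed the exact test. Among libraries with at least 1 read, it averaged 55.6 ± 50.9% in Heat (3 libraries) and 53.3 ± 38.1% in Control (4 libraries) at 0 DAT, 55.5 ± 18.9% in Heat (4) and 81.3 ± 8.84% in Control (2) at 1 DAT, and 91.0 ± 7.64% in Heat (4) and 76.3 ± 20.6% in Control (4) at 4 DAT (SD). Exact permutation tests gave p = 0.914, 0.267 and 0.229, and at 0 and 1 DAT these numbers of libraries cannot give a p under 0.0571 and 0.133. Many shares rest on few reads. At 0 DAT there were 5, 1 and 9 miR398 reads in the Heat libraries and 1, 61, 7 and 4 in the Control libraries. Heat replicate 2 and Control replicate 1 of that day had a share of 0% from 1 read each (Wilson 95% interval 0 to 79.3%).

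Within Heat the 3p share was 93.3%, 88.9%, 100% and 81.8% at 4 DAT (replicates 1 to 4), against 33.3%, 47.1%, 66.7% and 75.0% at 1 DAT. The ranges did not overlap, and the exact permutation p was 0.0286, the smallest possible, or 0.257 after adjustment over the 9 comparisons of shares made. The permutation took all libraries as independent, although both days sampled the same plant pools, so this p ignores the pairing. This comparison was chosen after its values were seen. The 75.0% of Heat 1 DAT replicate 4 was 3 of 4 reads (Wilson 95% interval 30.1 to 95.4%). As pooled reads, 102 of 117 miR398 reads were of the 3p tag in Heat at 4 DAT (87.2%, Wilson 95% interval 79.9 to 92.1%) and 54 of 113 in Heat at 1 DAT (47.8%, 38.8 to 56.9%), and 85 of these 113 reads came from replicate 2 alone.

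**Figure D4:**
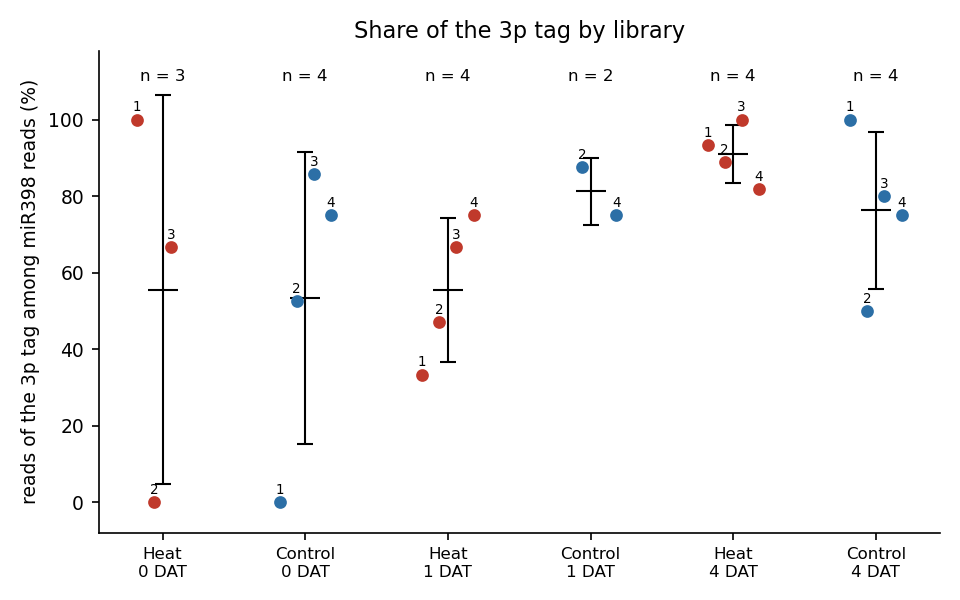
Reads of miR398-1.b-3p as a percentage of all miR398 reads (vertical axis) in each library with at least 1 such read, by group (horizontal axis), Heat red and Control blue, with replicate numbers, the mean ± SD (black bars) and the number of libraries (n). The 4 Heat libraries at 4 DAT lie between 81.8% and 100%, and the 4 Heat libraries at 1 DAT between 33.3% and 75.0%.

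The 2 arms varied together over plant pools. Their mean log2 RPM over the 3 days correlated across the 8 pools with Pearson's r = 0.767 (exact permutation p = 0.0239) and Spearman's rho = 0.833 (exact permutation p = 0.0154), the only relation of this kind computed. Without the pools farthest from the median of the 5p tag, Control 2 and Heat 2, r was 0.945. Each treatment has 4 pools, too few for a value within it. Across the 24 libraries r was 0.572 and rho 0.504, and after subtraction of the group means they were 0.643 and 0.564, given as descriptions because libraries of 1 pool share plants and both tags share each library's depth.

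**Figure D5:**
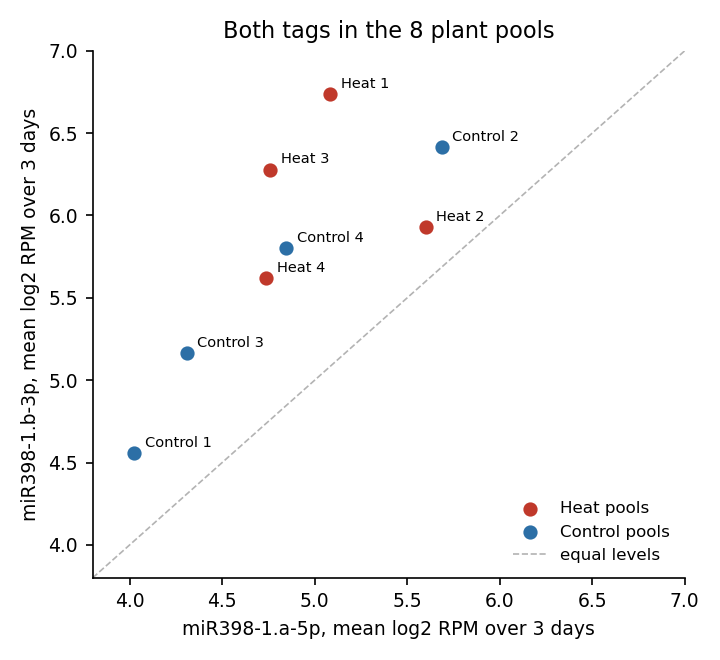
Mean log2 RPM of miR398-1.b-3p (vertical axis) against that of miR398-1.a-5p (horizontal axis) in the 4 Heat pools (red) and 4 Control pools (blue), each averaged over 3 days; the dashed line marks equal levels. All 8 pools lie above the line, and r was 0.767.

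Of the copper families miR397, miR398, miR408, miR528 and miR857, the table holds miR398 and miR528, a family of monocots that targets transcripts of copper-containing oxidases and, in cereals, a superoxide dismutase. miR528 had 5 tags. At 0 DAT 3 of them fell in Heat, where 8.42% of all tags were called lower. miR528-1.a-5p averaged 13.4 ± 9.38 RPM in Heat, against 1012 ± 508 RPM in Control (SD), a log2 difference of -6.21 ± 0.57 (SE; adjusted p = 1.1e-08, edgeR quasi-likelihood test). It thus differed on the day when neither miR398 tag passed the test. At 1 DAT, where 6.44% of all tags were called higher, 2 of the 5 tags rose, miR528-1.3-3p by 1.60 ± 0.51 and miR528-1.5-5p by 2.80 ± 0.84 on the log2 scale (adjusted p = 0.0461 and 0.0341, edgeR), and at 4 DAT 0 of 5 were called by edgeR. With a replicate block miR528-1.3-3p was not called at 0 DAT (adjusted p = 0.0508) or 1 DAT (0.0641, edgeR). Leaving out each library in turn, miR528-1.a-5p was called in 24 of 24 fits at 0 DAT, miR528-1.b-5p in 20 and miR528-1.3-3p in 18, and at 1 DAT miR528-1.5-5p in 20 and miR528-1.3-3p in 11, with the same sign in every fit. In the other settings at 0 DAT, miR528-1.a-5p was called in 11 of 11, miR528-1.b-5p in 8 and miR528-1.3-3p in 7. On miRNA totals without TMM miR528-1.b-5p (adjusted p = 0.168, edgeR) and miR528-1.3-3p (0.135) were not called. At 1 DAT miR528-1.3-3p was called in 6 of 11 and miR528-1.5-5p in 7 of 10. The median log2 difference on the 3 days was -1.91, 2.14 and 1.49 for the 2 miR398 tags and -1.001, 0.50 and 0.70 for the 5 miR528 tags, against -0.037, -0.12 and -0.057 for all 202 tags. Whether the families differed from each other was not tested.

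The sulfate and phosphate families miR395 and miR399 had 4 tags, of which 0, 1 and 0 were called at 0, 1 and 4 DAT by edgeR, against 17.3%, 11.4% and 0% of all 202 tags. The called tag, miR399-18-3p, belongs to the family that represses a ubiquitin-conjugating enzyme (PHO2) under phosphate shortage, and it rose by 1.23 ± 0.31 on the log2 scale at 1 DAT (adjusted p = 0.0175, edgeR quasi-likelihood test). It was called in 21 of 24 fits that left out 1 library and in 10 of 11 other settings. In the fit of the 8 libraries of the day it was not called (adjusted p = 0.139, edgeR). Tags most like the miR398 tags were ranked by Spearman's rho of log2 RPM over the 24 libraries, among 122 tags of other families with a mean count of at least 20. For miR398-1.a-5p they were miR399-18-3p (rho 0.624), miR1136-755-3p (0.508) and miR528-1.3-3p (0.445), and the median rho of all candidates was -0.051. For miR398-1.b-3p they were miR1136-755-3p (0.530), miR167-28-3p (0.528), whose family targets auxin response factors, and miR528-1.b-5p (0.448), against a median of -0.019. In Heat 1 DAT replicate 2, where both miR398 tags were high, miR1136-755-3p had its highest value of all libraries (694 RPM, against a mean of 306) and so did miR528-1.3-3p (520.4 RPM, against a mean of 206). The other named tags did not peak there. miR399-18-3p had 356 RPM (mean 329, highest 842), miR167-28-3p 307 RPM (mean 301, highest 686) and miR528-1.b-5p 365 RPM (mean 295, highest 499). In Control 0 DAT replicate 2, the other high library, miR1136-755-3p had 358 RPM and miR528-1.3-3p 345 RPM, below their highest values. These are descriptions without a test, and the libraries share their plant pools.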

How the data were processed

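Small RNA of 24 wheat leaf samples was made into TruSeq small RNA libraries and sequenced on a MiSeq, each library in 3 runs. The authors checked reads with FastQC, selected lengths of 18 to 24 nt and filtered out chloroplast and other non-coding sequences. They took tags that reached a minimum level in at least 1 library, mapped them with Bowtie2 to IWGSC RefSeq v1.0 and kept perfect matches. Versions of these tools: not given in the sources used here. In the deposited table the authors gave raw read counts, 1 value per tag and library, with no normalization. Sequences, precursor positions and target sites were copied from the study's supplementary tables, whose totals of 18 to 24 nt reads served as an alternative scale.

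RPM values are counts over TMM-scaled totals of miRNA reads, and log2 RPM used a prior count of 2. edgeR's quasi-likelihood test was fitted once to the 6 groups and all 202 tags, with no filter. Its p-values were adjusted by Benjamini-Hochberg over the 202 tags with a threshold of 0.05, and log2 differences are its fitted values. The SE of an edgeR log2 difference was derived as its absolute value divided by the square root of the test's F statistic. The unadjusted 95% intervals were built from this SE, which is rough for differences near 0. Where there was 1 value per library or pool, exact two-sided permutation tests were used. Alternatives were other scalings, filters and tests, blocks for replicate number or plant pool, fits of single days or treatments, and leaving out libraries. Software was R 4.3.3 with edgeR 4.0.16, limma 3.58.1 and DESeq2 1.42.0, RNAfold 2.7.2, and Python 3.11.15 with pandas 2.3.3, scipy 1.17.1 and numpy 2.4.6.

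The members, the lists and the rules for naming (both miR398 tags, all miR528 tags, the nutrient families by count and the 3 most alike tags) were chosen with earlier results of these data known. The nutrient tag named with values was chosen after they were seen. Each library held 58501 to 300261 miRNA reads. On simulated data the test was checked, for Heat against Control at 4 DAT with 40 of 202 tags changed. It recovered 93.5% of 4-fold changes, or 89.2% of those with a mean count under 20, and 37.5% and 25.3% of 2-fold changes, and 6.97% and 7.41% of the calls were false. These shares pool many tags and were not computed for the miR398 tags. Their dispersions of 0.922 and 0.929 lie far above the median of 0.0941, so the shares do not give the chance of finding a 4-fold miR398 change. Of 36 replicate pairs 0 agreed within sampling noise, and none was merged.

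Replicate numbers 1 to 4 recur in every group. By the study's methods, libraries of 1 treatment with the same number come from the same plants. Between Heat and Control, the deviations of equal-numbered libraries from the means of their groups, over 122 tags with a mean count of at least 20, correlated with r of 0.306, 0.566, 0.240 and 0.323 at 1 DAT, all above 0.1, whereas at 0 and 4 DAT not all 4 pairs were. Between days within a plant pool, the same correlations ranged from -0.546 (Heat pool 2, 1 and 4 DAT) to 0.443 (Control pool 3, 0 and 1 DAT). Libraries of a pool were thus not regularly alike. The tests given are without a block, as in the study, and the blocked value is given where it changes a call.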

Additional observations from a re-analysis of the deposited data

Results flagged for a closer look

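In groups of 4 libraries, 22 sets of values were checked for a library far from the others (both tags, their sum and the 3p share), and 2 had one. For independent, normally distributed values chance alone gives about 1 in 20. The sets here are of low, skewed counts, and the sum holds the reads of both tags, so that rate is only a guide. Tags were also kept by the level of their highest library, which favours rare tags with a high library. miR398-1.a-5p was at 185 RPM in Control 0 DAT replicate 2, where the other 3 Control libraries were between 5.61 and 15.1 RPM, and the gap to the nearest was 94.7% of the range. miR398-1.b-3p was at 178 RPM in Heat 1 DAT replicate 2, where the other 3 Heat libraries were between 24.0 and 46.9 RPM, and the gap was 85.1% of the range. Both libraries carry replicate number 2 and were high for both tags, with 45 and 40 reads in the Heat library and 29 and 32 reads in the Control library for the 5p and 3p tag.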

How the results depend on the processing

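No difference of a miR398 tag between groups passed the threshold of 0.05 after adjustment as reported. Of 325 values under the planned and added alternatives that do not leave out single libraries, 302 kept direction and side of the threshold, 5 passed it and 18 changed sign, and of 739 that leave out 1 library 715, 5 and 19 did so.

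On totals of 18 to 24 nt reads in place of TMM, miR398-1.a-5p passed at 1 DAT (log2 difference 3.55), for the heat effect at 1 minus 0 DAT (6.14) and for the 3 contrasts together (adjusted p = 0.0448, edgeR), and with edgeR's likelihood ratio test for the last pair of results (5.65, and adjusted p = 0.0285). Leaving out Control 0 DAT and Heat 1 DAT replicate 2 together, chosen after seeing the data, turned the log2 difference of the 5p tag to 0.36 at 0 DAT and, within Control, to 0.038 for 1 against 0 DAT and 0.44 for 4 against 0 DAT. For the 3p tag these became 0.22, 0.69 and 0.56, with -0.10 at 1 DAT and -0.32 for the heat effect at 1 minus 0 DAT, and the summed reads gave 0.30 at 0 DAT. Leaving out all 6 libraries of number 2, also chosen after seeing the data, gave 0.33 at 0 DAT and 0.49 for 4 against 0 DAT within Control for the 5p tag. The 3p tag then gave 0.61 at 0 DAT, -0.11 for 1 against 0 DAT within Heat, and 0.81 for 4 against 0 and 1.53 for 4 against 1 DAT within Control, and the summed reads 0.59 at 0 DAT. Apart from the 2 settings that remove libraries by construction, the cause of these changes was not tested.

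The replicate block changed no call of a miR398 tag, and it ended those of miR528-1.3-3p at 0 and 1 DAT. It turned the log2 difference of the 3p tag for 4 against 1 DAT within Control, -0.058 without it, to 0.21, and the block of plant pools turned it to 0.35.

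Leaving out 1 library at a time, the log2 difference of the 5p tag ranged from -3.62 to 0.30 at 0 DAT, from 2.13 to 3.86 at 1 DAT and from -0.29 to 2.05 at 4 DAT. It ranged from -0.18 to 2.26 for 4 against 0 DAT within Heat, from -3.41 to 0.42 for 4 against 0 and from -0.66 to 1.00 for 4 against 1 DAT within Control, and from 2.99 to 6.91 for the heat effect at 1 minus 0 DAT, and its adjusted p for the 3 contrasts together from 0.0418 to 0.275 (edgeR). For the 3p tag the ranges were -2.09 to 0.15 at 0 DAT and -0.073 to 2.32 at 1 DAT. Within Control they were -2.25 to 0.59 for 1 against 0, -1.80 to 0.53 for 4 against 0 and -0.84 to 1.27 for 4 against 1 DAT, and for the heat effect at 4 minus 1 DAT -0.27 to 2.12. Summed reads ranged from -2.27 to 0.31 at 0 DAT, and the difference in 3p share at 0 DAT from -20.0 to 30.0 percentage points.

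A filter with filterByExpr kept 194 tags and left out the 5p tag, and a mean count of at least 20 kept 122 tags and neither miR398 tag, so these settings give no value for a tag they leave out. Of 24 libraries, 20 held fewer than 10 reads of the 5p tag and 17 of the 3p tag, and the part of depth in these results was not tested.

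Over all alternatives the number of called tags, of 202, was 22 to 41 at 0 DAT (35 as reported), 1 to 27 at 1 DAT (23) and 0 to 4 at 4 DAT (0). Within Heat it was 2 to 10 for 1 against 0 (4), 2 to 19 for 4 against 0 (11) and 0 to 5 for 4 against 1 DAT (0), and for the heat effect 1 to 9 at 1 minus 0 (5) and 1 to 7 at 4 minus 0 DAT (2).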
